A study of Mus musculus with 13 samples.

Results

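Transforming growth factor-β (TGF-β) ligands, their receptors, the latent binding proteins that hold the ligands in the matrix, and the inhibitor Smad7 were followed in the left ventricle (LV) of mice with cardiac overexpression of the liver X receptor LXRα. The genes were taken by symbol: Tgfb1, Tgfb2 and Tgfb3 (ligands), Tgfbr1, Tgfbr2 and Tgfbr3 (receptors), Ltbp1 and Ltbp3 (latent binding proteins) and Smad7. Of these 9 genes, 8 carried probes on the array, 19 of the 25697 probes and 8 of the 16593 genes named there. No probe of Smad7 was listed, and it was not analysed here.

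LV RNA of male C57BL/6 mice aged 4 months was hybridised to Illumina mouse BeadChips as 13 arrays, labelled as 4 groups: 3 arrays of Wt sham, 4 of Wt TAC, and 3 each of LXRα-Tg sham and LXRα-Tg TAC. LXRα-Tg mice carried murine LXRα behind the αMHC promoter, which is active in cardiomyocytes, while Wt mice were littermates without the transgene. The construct was injected into FVB oocytes and the line was then crossed back to C57BL/6. TAC is a constriction of the transverse aorta that overloads the LV, kept for 5 weeks, and sham mice had the operation without it. The series record gives 3 mice per group, and all 4 arrays labelled Wt TAC were used. Array numbers within a group are running numbers. No label says that each array was a separate mouse, so p-values measure the spread between arrays.

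Per array 9454 to 10392 probes were detected, that is, had a detection p under 0.01 against the negative controls, and the lowest detected signal was 14.6 to 24.2. The genotype labels were checked with Nr1h3, the gene of LXRα. It was either high (25187 to 31975, on 5 arrays) or low (163 to 397, on 8), and 5 arrays went against their label: Wt sham 3 and Wt TAC 2 were high, and LXRα-Tg sham 1, LXRα-Tg sham 2 and LXRα-Tg TAC 3 were low. The Y-linked gene Eif2s3y was missing from Wt sham 1 and LXRα-Tg TAC 3, although all mice were labelled male. Cardiomyocyte markers were present, since 8 or 9 of the 9 listed as ventricular were detected on each array. Wt sham 3 also had the highest summed signal of liver markers (13659) and of kidney markers (2476). LXRα-Tg TAC 1 came next for both (12803 and 879), followed by Wt TAC 4 (6802 and 488). All groups below are the groups as labelled, and results are also given without the 5 arrays.

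TGF-β is secreted in a latent form, bound to its own propeptide and through it to a latent TGF-β binding protein, which ties the complex to the extracellular matrix. Integrins and proteases release it. The free ligand binds the type II receptor Tgfbr2, which then activates the type I receptor Tgfbr1, and receptor-activated SMAD proteins carry the signal to the nucleus, where Smad7 is induced as a feedback inhibitor. In the heart under pressure overload the pathway is best known for turning fibroblasts into matrix-producing myofibroblasts.

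To set the genes beside their regulatory sequence, the region from 250 bases before to 50 after an annotated transcription start was read for the 6 genes that matched by symbol in the RefSeq promoter table (GRCm38.p6): Tgfb1, Tgfb2, Tgfbr1, Tgfbr2, Ltbp1 and Ltbp3. Motifs were searched on both strands in this window and in all 32851 windows of the table. The Sp1 motif, spelled GGGCGG, is in 35.7% of them. The SMAD-binding motif, spelled CAGACA, is in 21.0%. The half-site of the cAMP response element (CRE), spelled TGACGT, is in 7.51%. The AP-1 motif, spelled TGANTCA, is in 7.81%, and the TATA box, spelled TATAAA, in 13.6%. The 5 windows below belong to genes whose values differ most between the sham groups and for which a window was at hand, with matches in capitals, 5′ to 3′ along the gene. Tgfb2 lies at chr1:186705940-186706239 (minus strand), Tgfbr1 at chr4:47352972-47353271 (plus), Tgfbr2 at chr9:116175314-116175613 (minus), Ltbp1 at chr17:75005279-75005578 (plus) and Ltbp3 at chr19:5740650-5740949 (plus).
Tgfb2: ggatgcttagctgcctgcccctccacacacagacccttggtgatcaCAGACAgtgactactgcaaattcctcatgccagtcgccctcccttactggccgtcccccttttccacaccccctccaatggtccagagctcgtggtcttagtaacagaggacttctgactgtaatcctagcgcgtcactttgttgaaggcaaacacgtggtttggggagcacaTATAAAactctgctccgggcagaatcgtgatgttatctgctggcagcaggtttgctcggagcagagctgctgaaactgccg
Tgfbr1: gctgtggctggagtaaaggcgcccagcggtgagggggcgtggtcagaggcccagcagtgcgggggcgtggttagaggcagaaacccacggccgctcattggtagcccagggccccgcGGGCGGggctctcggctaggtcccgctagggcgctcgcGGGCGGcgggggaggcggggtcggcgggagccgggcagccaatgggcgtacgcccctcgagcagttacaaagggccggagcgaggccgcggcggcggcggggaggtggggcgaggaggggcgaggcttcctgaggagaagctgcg
Tgfbr2: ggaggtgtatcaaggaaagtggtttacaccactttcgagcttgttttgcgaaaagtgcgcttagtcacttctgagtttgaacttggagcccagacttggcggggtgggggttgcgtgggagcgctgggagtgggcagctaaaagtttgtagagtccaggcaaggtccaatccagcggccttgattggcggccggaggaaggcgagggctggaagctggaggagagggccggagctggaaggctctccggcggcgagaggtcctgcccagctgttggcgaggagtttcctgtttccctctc
Ltbp1: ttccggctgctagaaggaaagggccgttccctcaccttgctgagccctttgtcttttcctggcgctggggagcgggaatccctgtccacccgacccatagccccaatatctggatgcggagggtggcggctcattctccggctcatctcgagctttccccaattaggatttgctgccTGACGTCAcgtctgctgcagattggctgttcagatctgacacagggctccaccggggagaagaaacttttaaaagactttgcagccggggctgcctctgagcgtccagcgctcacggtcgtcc
Ltbp3: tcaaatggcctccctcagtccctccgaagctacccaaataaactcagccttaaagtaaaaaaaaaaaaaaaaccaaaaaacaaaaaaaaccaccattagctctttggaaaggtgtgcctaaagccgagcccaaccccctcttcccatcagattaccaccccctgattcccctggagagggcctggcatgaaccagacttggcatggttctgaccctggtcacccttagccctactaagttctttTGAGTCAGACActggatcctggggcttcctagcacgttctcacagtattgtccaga

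Counting the start as base 0, the Tgfb2 window has a TATA match at bases -31 to -26 and a CAGACA match at -204 to -199. Tgfbr1 has 2 Sp1 matches, at -133 to -128 and -95 to -90, and a GC content of 74.7%. Tgfbr2 holds none of the 5 motifs in these letters. In Ltbp1 the capitals mark 1 palindrome in which 2 CRE half-sites on opposite strands overlap, at -73 to -66. In Ltbp3 an AP-1 match and a CAGACA match overlap across the start, from -6 to 4. The Tgfb1 window, not printed, holds 6 Sp1 matches at a GC content of 77.0%, against a median GC content of 52.7% over all windows. A second window of Tgfbr1, at a later start, holds 1 CAGACA match and a second window of Ltbp1 holds 2. Among the 5 printed windows, CAGACA is in those of Tgfb2 and Ltbp3, and no motif is in all 5. These matches are descriptions of letters, and binding was not measured.

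Each of the 8 genes had 1 probe that was detected on at least 3 arrays and brightest for its gene. This probe was detected on all 13 arrays for 7 genes. That of Tgfb2 was detected on 11, with Wt sham 1 and LXRα-Tg TAC 3 below the limit. Tgfb1, Tgfb2 and Tgfb3 had no other probe. The 3 other probes of Tgfbr1 were detected on 0 arrays, as were 4 of the 5 others of Ltbp1, the fifth being detected on 1. The other probe of Tgfbr2 was detected on 1 array, that of Tgfbr3 on 2 and that of Ltbp3 on 8. Values below are therefore those of 1 probe a gene, and probes of different genes are not set against each other. Signals are background-subtracted and linear as deposited. Log2 values were made from them with normexp correction and quantile normalization, and tests are limma's over 7837 genes with Benjamini-Hochberg adjustment. LV tissue was measured whole, so more cells of a type and more RNA per cell cannot be told apart.

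With limma, 0 of the 8 genes passed the adjusted threshold of 0.05 in LXRα-Tg sham against Wt sham, where 1.58% of all genes tested did (1.3% higher and 0.281% lower). Without adjustment, 7 of 8 had a p under 0.05 (16.1% of all genes), of which 5 stood higher (9.34%) and 2 stood lower (6.74%). The higher ones were the ligands Tgfb2 and Tgfb3, the signalling receptors Tgfbr1 and Tgfbr2, and Ltbp3, and the lower ones the coreceptor Tgfbr3 and Ltbp1. The median log2 difference of the 8 was 0.57, and that of all genes -0.0092. In 4 of the 5 higher genes every LXRα-Tg sham array lay above every Wt sham array (11% of all genes), and in both lower ones every array lay below (9.4%). Run unpaired, the methods' t-test gave 5 of the 8 under 0.05 (13.2% of all genes) and 0 after Benjamini-Hochberg adjustment, and the methods' Bonferroni comparison over 4 pairs of groups gave 4 of 8 under 0.05 (6.66% of all genes).

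**Figure D1:**
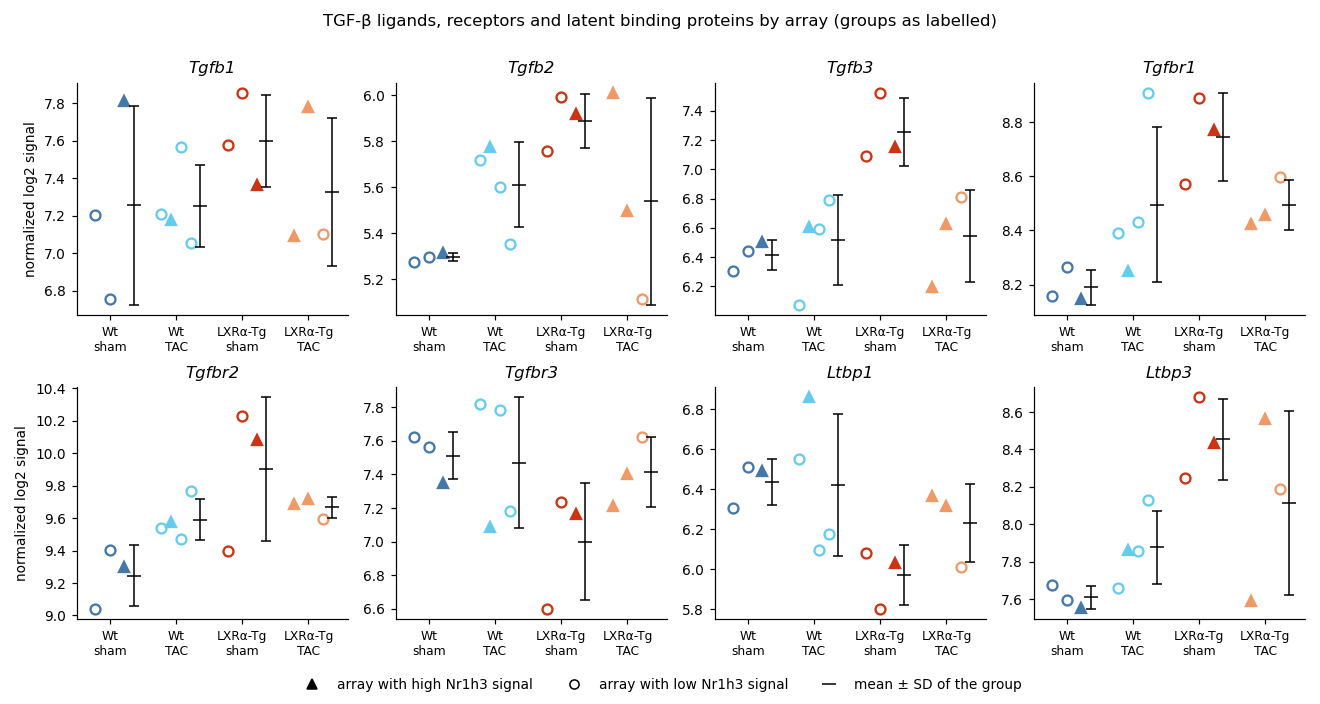
Normalized log2 signal (vertical axis) of the brightest probe of each gene on 13 arrays in the 4 groups as labelled. Points are arrays, filled triangles those with a high Nr1h3 signal, and black bars are the mean ± SD of a group (n = 3, 4, 3 and 3). The 3 LXRα-Tg sham arrays lie above all 10 others for Tgfb3 and above the 3 Wt sham arrays for Tgfb2, Tgfb3, Tgfbr1 and Ltbp3.

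Tgfb3 encodes the ligand best known from palate development. Its signal was 48.7, 75.7 and 61.9 on Wt sham 1 to 3, and 134.9, 220.2 and 119.1 on LXRα-Tg sham 1 to 3. The 2 groups did not overlap, and on the log2 scale they stood at 6.42 ± 0.10 and 7.26 ± 0.23 (SD, n = 3 each), a difference of 0.84 (standard error 0.20, limma adjusted p = 0.0601). Under TAC its signal was 56.2, 82.6, 82.8 and 106.8 on the Wt arrays and 67.1, 58.4 and 77.8 on the LXRα-Tg arrays. All 3 LXRα-Tg sham arrays lay above all 10 others on the log2 scale, which held for 1.99% of all genes in that direction and for no other of the 8 genes. In LXRα-Tg mice the TAC arrays all lay below the sham arrays, at 6.54 ± 0.31 (6.33% of all genes), a difference of -0.71 (standard error 0.20, unadjusted p = 0.00398, limma adjusted p = 0.513).

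Tgfb2 encodes a ligand that binds its signalling receptors weakly without the coreceptor Tgfbr3. Its signal was low, at 17.6, 25.1 and 20.2 on the Wt sham arrays and 46, 63 and 41.4 on the LXRα-Tg sham arrays. The log2 values were 5.30 ± 0.019 and 5.89 ± 0.12 (SD, n = 3 each), a difference of 0.59 (standard error 0.19, limma adjusted p = 0.147) with no overlap. On the Wt TAC arrays it read 39.6, 39.8, 33.1 and 27.8, all above Wt sham. The LXRα-Tg TAC arrays spread most, at 56.6, 20.6 and 14.8, the last of these below detection.

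Tgfb1 encodes the ligand most often studied in cardiac fibrosis. It read 102.3, 98 and 171.4 on the Wt sham arrays, 149, 129.1, 181.1 and 132.9 on the Wt TAC arrays, 192, 282.2 and 140.4 on the LXRα-Tg sham arrays and 136.2, 142.7 and 98.5 on the LXRα-Tg TAC arrays. The ranges of the 4 groups overlapped. Log2 means were 7.26 ± 0.53, 7.25 ± 0.22, 7.60 ± 0.25 and 7.33 ± 0.39 in that order, and the difference between the sham groups was 0.34 (standard error 0.26, limma adjusted p = 0.591; 95% confidence interval -0.23 to 0.91). Wt sham 3, which has the highest liver and kidney signals and a high Nr1h3, held the highest Tgfb1 of its group. Without it the difference was 0.62. With 1 array left out the difference ran from 0.090 to 0.62, with limma adjusted p from 0.214 to 0.920.

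Tgfbr1 is the type I receptor kinase (ALK5) that phosphorylates SMAD2 and SMAD3. Its signal was 210.9, 312.1 and 221 on the Wt sham arrays and 379.5, 589.5 and 402.3 on the LXRα-Tg sham arrays, so that the groups did not overlap. The log2 values of 8.19 ± 0.065 and 8.74 ± 0.16 (SD, n = 3 each) differed by 0.55 (standard error 0.16, limma adjusted p = 0.111). Under TAC the signal was 370.3, 282.9, 349.9 and 543.1 in Wt and 363, 233.5 and 312.4 in LXRα-Tg, with means of 8.5 ± 0.29 and 8.49 ± 0.093 on the log2 scale.

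Tgfbr2, the ligand-binding type II receptor, read 404, 719.2 and 515.5 on the Wt sham arrays and 677.1, 1488.4 and 998.3 on the LXRα-Tg sham arrays. LXRα-Tg sham 1 lay just below the highest Wt sham array on the log2 scale, and the other 2 lay above all Wt sham arrays. The log2 values of 9.25 ± 0.19 and 9.90 ± 0.44 (SD, n = 3 each) differed by 0.66 (standard error 0.19, limma adjusted p = 0.110). Without LXRα-Tg sham 1 the difference was 0.91 and passed limma's test (adjusted p = 0.0269). This was the 1 call among the 8 genes that leaving out a single array gave. With 1 array left out the difference of Tgfbr2 ran from 0.49 to 0.91, with limma adjusted p up to 0.376. The Wt TAC arrays, at 844.1, 722.9, 751.1 and 989.2, all lay above the Wt sham arrays, and those of LXRα-Tg TAC, at 887.2, 581.5 and 629.8, lay among them on the normalized scale.

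Tgfbr3 encodes betaglycan, which presents ligand to Tgfbr2 and can also be shed as a soluble trap. It ran the other way: 140.8, 185.8 and 122.1 on the Wt sham arrays and 93.7, 176.8 and 120.8 on the LXRα-Tg sham arrays. The raw signals overlap and the normalized values do not, at 7.51 ± 0.14 and 7.0 ± 0.35 on the log2 scale (SD, n = 3 each), a difference of -0.51 (standard error 0.23, limma adjusted p = 0.293). The Wt TAC arrays read 241.5, 120.6, 213.3 and 147.2 and those of LXRα-Tg TAC 148.3, 107.2 and 150.

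The latent binding proteins differed from each other. Ltbp3 read 147.3, 191 and 141.8 on the Wt sham arrays and 306.5, 513.7 and 314.9 on the LXRα-Tg sham arrays, with no overlap. Its log2 values were 7.61 ± 0.061 and 8.45 ± 0.22 (SD, n = 3 each), a difference of 0.85 (standard error 0.21, limma adjusted p = 0.0706). Ltbp1, in contrast, read 48.7, 80.3 and 61.4 against 61.6, 52.2 and 46. After normalization its groups did not overlap, at 6.44 ± 0.11 and 5.97 ± 0.15, a difference of -0.46 (standard error 0.19, limma adjusted p = 0.255). Under TAC, Ltbp3 read 211.9, 215.3, 225 and 305.4 in Wt and 195, 252.9 and 230.8 in LXRα-Tg, and Ltbp1 read 86.1, 101.3, 53.5 and 62.8 in Wt and 77.6, 44.8 and 38.3 in LXRα-Tg. A second Ltbp3 probe was dim, with a highest signal of 44.9 on LXRα-Tg sham 2, and the mean of both probes gave a difference of 0.63.

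Both slides held arrays of all 4 groups. On slide 1, with 2 Wt sham arrays and 1 LXRα-Tg sham array, the sham difference was 0.72 for Tgfb3, 0.61 for Ltbp3, 0.47 for Tgfb2, 0.36 for Tgfbr1, 0.18 for Tgfbr2, 0.60 for Tgfb1, -0.99 for Tgfbr3 and -0.33 for Ltbp1. On slide 2, with 1 and 2 arrays, it was 0.83, 1.0, 0.64, 0.69, 0.86, -0.20, -0.15 and -0.57 in the same order. Thus 7 of the 8 genes kept their direction on each slide, and Tgfb1 did not. The sham groups of Tgfb2, Tgfb3, Tgfbr1, Ltbp3, Tgfbr3 and Ltbp1 did not overlap on the normalized scale. Any subset of their arrays therefore had to give the same direction, so this agreement is no separate support. Without the 5 arrays that go against their genotype label, which leaves 2 Wt sham arrays and 1 LXRα-Tg sham array, the differences were 0.78, 0.80, 0.63, 0.56, 0.86, 0.39, -0.43 and -0.37 in that order. Here 0 of 8 passed limma's adjusted threshold, as did 6 of all 7837 genes, and the spread of the single array had to be borrowed from the other groups.

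**Figure D2:**
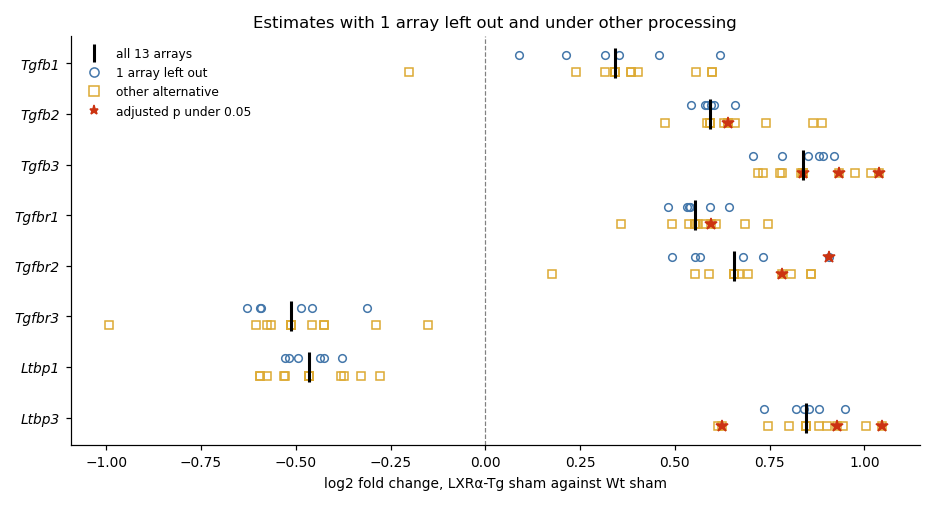
Log2 fold change in LXRα-Tg sham against Wt sham (horizontal axis) for the 8 genes, with all 13 arrays (black bars), with 1 array of these groups left out (circles) and under the other alternatives (squares). Stars mark estimates with an adjusted p under 0.05. Of 176 estimates 10 passed and 1 had the opposite sign, that of Tgfb1 on slide 2 alone (-0.20).

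TAC was compared with sham within each genotype. In Wt, 0 of the 8 genes passed limma's adjusted threshold, as did 0% of all genes, and 0 had an unadjusted p under 0.05 (6.88% of all genes). By the methods' t-test 2 of the 8, Tgfb2 and Tgfbr2, were under 0.05 (6.75% of all genes) and 0 after Benjamini-Hochberg adjustment, and 0 were under 0.05 by the methods' Bonferroni comparison (1.88% of all genes). The receptors Tgfbr2 and Tgfbr1 and the ligand Tgfb2 had the largest estimates, 0.34, 0.30 and 0.32 on the log2 scale (standard errors 0.18, 0.15 and 0.18). Ltbp3 stood at 0.27 and Tgfb3 at 0.10, and Tgfb1, Tgfbr3 and Ltbp1 lay between -0.043 and -0.0043. Every Wt TAC array lay above every Wt sham array for Tgfb2 and Tgfbr2 (4.41% of all genes). The confidence intervals still allow changes of either sign for all 8, for example -0.53 to 0.53 for Tgfb1 and -0.043 to 0.73 for Tgfbr2. With the arrays scaled to a common median in place of quantile normalization, the median of all genes moved to 0.19 and all 8 estimates were above 0.

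In LXRα-Tg the estimates for TAC against sham ran from -0.71 for Tgfb3 to 0.41 for Tgfbr3 (standard error 0.23), with a median of -0.26 for the 8 genes and 0.010 for all genes. Tgfb2 stood at -0.35, Ltbp3 at -0.34, Tgfb1 at -0.27, Tgfbr1 at -0.25, Tgfbr2 at -0.23 and Ltbp1 at 0.26. With 1 array left out, Tgfb3 ran from -0.84 to -0.54, Tgfb2 from -0.59 to -0.14, Ltbp3 from -0.57 to -0.078, Tgfb1 from -0.50 to -0.14, Tgfbr1 from -0.34 to -0.18, Tgfbr2 from -0.49 to -0.071, Tgfbr3 from 0.21 to 0.53 and Ltbp1 from 0.17 to 0.37. With limma, 0 of 8 passed after adjustment (0% of all genes), and Tgfb3 was the 1 gene with an unadjusted p under 0.05 (7.04% of all genes). This comparison shares its LXRα-Tg sham arrays with the comparison of the sham groups.

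**Figure D3:**
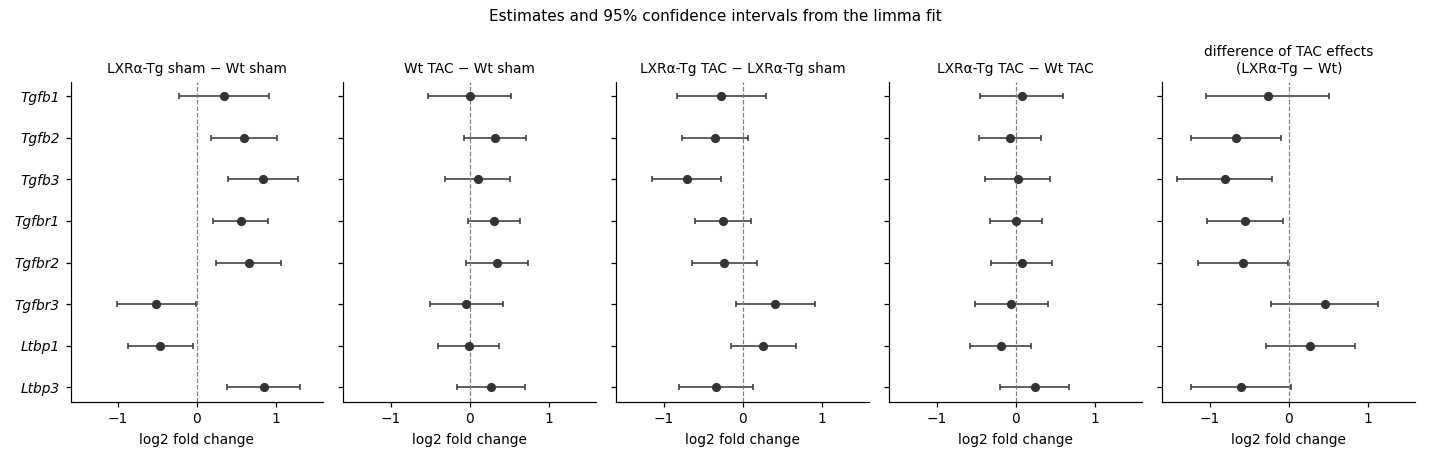
Log2 fold change (horizontal axis) of the 8 genes in the 5 comparisons, with 95% confidence intervals from the limma fit of 13 arrays. Intervals exclude 0 for 7 genes between the sham groups, for Tgfb3 in TAC against sham of LXRα-Tg and for 4 genes in the difference of the TAC effects, before any adjustment for multiple tests.

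The difference of these TAC effects, LXRα-Tg minus Wt, was tested as an interaction and rests on the same arrays. It was -0.81 for Tgfb3 (standard error 0.28), -0.67 for Tgfb2 (0.27), -0.58 for Tgfbr2 (0.26) and -0.56 for Tgfbr1 (0.22), each with an unadjusted p under 0.05, as 6.05% of all genes had in that direction and 10.2% in either. Ltbp3 stood at -0.61, Tgfb1 at -0.27, Ltbp1 at 0.27 and Tgfbr3 at 0.46. With limma 0 of 8 passed after adjustment (0% of all genes), the lowest adjusted p being 0.334. Between the TAC groups themselves the 8 genes differed by -0.19 (Ltbp1) to 0.24 (Ltbp3), the ranges of all 8 overlapped (the groups of 2.19% of all genes lay apart upwards and of 2.96% downwards), and 0 of 8 had an unadjusted p under 0.05 (4.72% of all genes). With limma 0 of 8 passed after adjustment (0%). The 95% confidence intervals there stay between -0.58 and 0.67, and for Tgfbr1 they run from -0.33 to 0.33.

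The rest of the pathway was described by role in the comparison of the sham groups. Among 11 measured genes of latency and activation 3 rose (1.3% of all genes). They were the matrix metalloproteinases Mmp2 (log2 fold change 1.06) and Mmp14 (0.85) and the elastin-interface protein Emilin1 (1.05). Emilin1 holds back TGF-β precursor processing. The median of the list was 0.24. Ltbp4 stood at 0.63 (limma adjusted p = 0.153) and Furin, a convertase that cleaves the precursor, at -0.47 (adjusted p = 0.244). Of 9 extracellular antagonists 4 rose (1.3% of all genes), and the list had a median of 0.56. The 4 were the small proteoglycans Fmod (1.64) and Bgn (1.44), the follistatin-like Fstl1 (1.32) and the BMP antagonist Nbl1 (0.96).

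Among 6 activin, BMP and GDF ligands 1 rose (1.3% of all genes), Inhba, the activin A subunit, by 1.03. Bmp4 stood at 0.85 (limma adjusted p = 0.0726). Of 23 genes that TGF-β is known to induce, 3 rose (1.3% of all genes), and the list had a median of 0.56. The 3 were the protease inhibitor Timp1 (2.61), the myofibroblast transcription factor Meox1 (2.31) and the matricellular Ccn2 (1.67, limma adjusted p = 0.0498). Col1a1, a collagen chain, stood at 1.33 (adjusted p = 0.0588), while Acta2, the smooth muscle actin of myofibroblasts, stood at -0.17 (adjusted p = 0.858). Of 6 SMAD proteins, 8 related receptors and 12 intracellular inhibitors and regulators 0 passed, where 1.58% of all genes did, and the medians were 0.010, 0.057 and 0.21. Lists were not tested against each other. By limma 0 genes of these 7 lists fell in this comparison, and 0 passed in either direction in any of the other 4. The 11 calls do not stand without Wt sham 1 or without LXRα-Tg sham 2, where 0 of all genes passed.

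**Figure D4:**
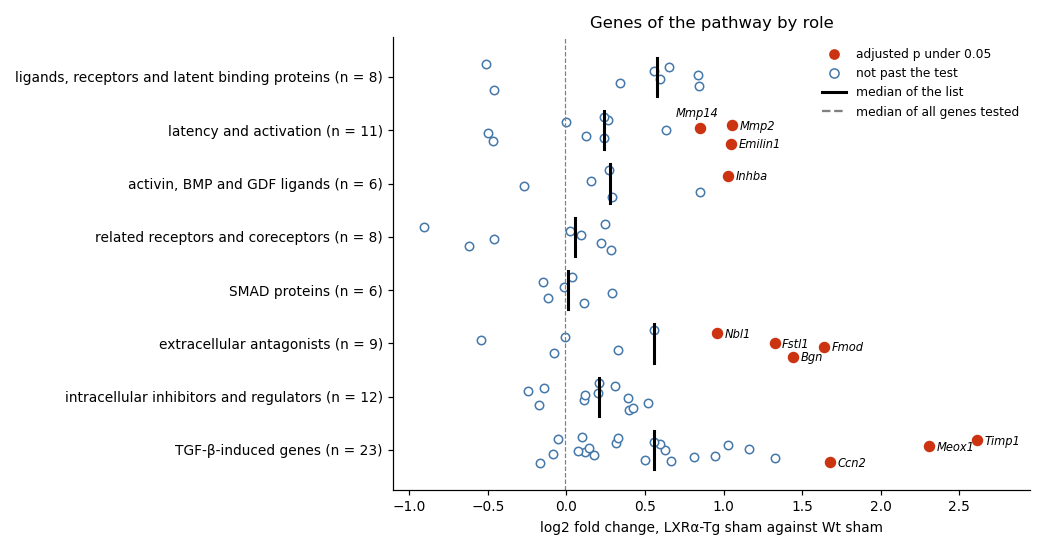
Log2 fold change in LXRα-Tg sham against Wt sham (horizontal axis) for the 8 genes and 7 further lists of the pathway by role. Points are genes, filled where the adjusted p is under 0.05, black bars are list medians and the dashed line is the median of all 7837 genes (-0.0092). The 11 called genes are named and all are above 0.

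Markers of some cell types also differed between the sham groups. Of 9 fibroblast markers measured, 4 rose (1.3% of all genes), and the median log2 fold change was 0.42. The 4 were Mfap5 (1.97), Vim (1.13), Lum (1.08) and Col15a1 (1.02). The other fibroblast markers measured were not called and ran from 0.044 to 0.42. The summed signal of the 11 fibroblast markers on the array was 3027 to 4153 in Wt sham, 4224 to 5491 in Wt TAC, 6140 to 9832 in LXRα-Tg sham and 3855 to 5441 in LXRα-Tg TAC. Of these, Ddr2 and S100a4 were detected on 0 arrays. For macrophage markers 0 of 8 passed after adjustment. Their median log2 fold change was 0.60, and 6 stood higher with an unadjusted p under 0.05 by limma (9.34% of all genes). The summed signal of macrophage markers was 2461 to 3807, 3648 to 5156, 4475 to 8721 and 3258 to 4310 in the same order. Endothelial markers summed to 6548 to 9910 in Wt sham and 9156 to 13963 in LXRα-Tg sham, with 0 of 9 called. On the signal scale the LXRα-Tg sham arrays had the highest fibroblast sums, with no overlap with any other group. On the normalized log2 scale the mean of the fibroblast markers was 8.51 to 8.55 in Wt sham and 9.14 to 9.36 in LXRα-Tg sham, and LXRα-Tg TAC 3, at 9.19, lay within the latter range. LXRα-Tg sham 2 had the highest sum of both fibroblast and macrophage markers. Atrial cardiomyocyte markers also stood higher in LXRα-Tg sham, with a median log2 fold change of 1.81 over the 7 measured. Of these Dkk3 rose (1.3% of all genes did). With Dkk3 included, 5 stood higher with an unadjusted p under 0.05 by limma (9.34% of all genes). The summed signal over 9 atrial markers was 6594 to 11733 in Wt sham and 27093 to 36368 in LXRα-Tg sham, so the sham groups did not overlap. It was 9914 to 33027 in Wt TAC and 18731 to 33025 in LXRα-Tg TAC. These sums were carried by Nppa, a natriuretic peptide gene, which alone read 6418 to 32019 over the 13 arrays. The next brightest marker, Myl4, read 94.6 to 5699. The atrial marker Bmp10 was detected on 0 arrays. Of 9 smooth muscle and pericyte markers Cspg4 rose (0.62, as 1.3% of all genes rose), and the median was 0.0042. Their sums were 3485 to 4490 in Wt sham and 3963 to 4450 in LXRα-Tg sham. The marker calls do not stand without Wt sham 1 or without LXRα-Tg sham 2, where 0 of all genes passed. The part of these markers in the values of the 8 genes was not tested.

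**Figure D5:**
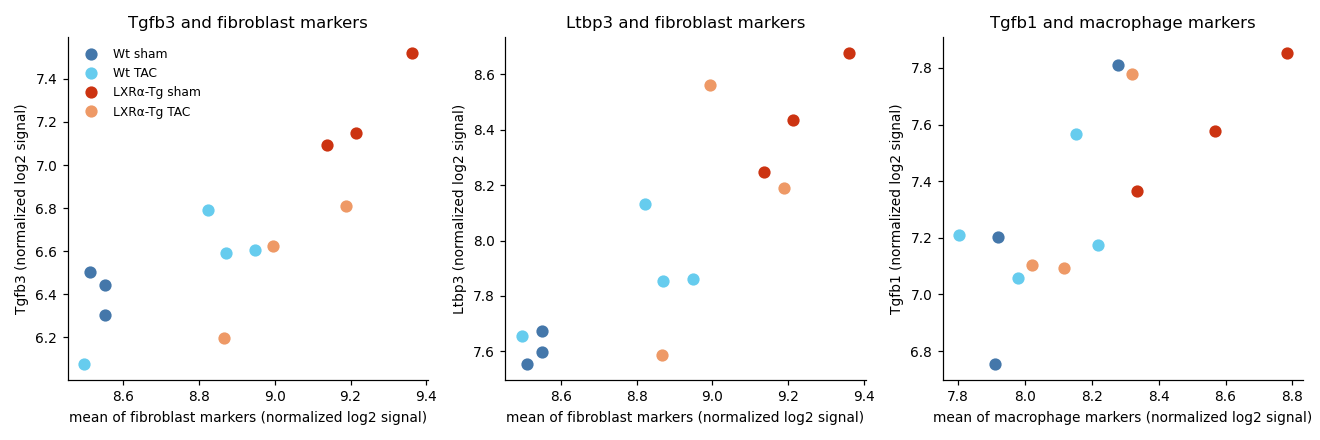
Normalized log2 signal of Tgfb3 and Ltbp3 against the mean of fibroblast markers, and of Tgfb1 against the mean of macrophage markers. Each point is 1 of 13 arrays, coloured by labelled group, and LXRα-Tg sham 2 lies at the upper right of each panel.

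Across the 13 arrays, which share their groups and slides, Tgfb3 and Ltbp3 ran most alike among the 8 genes (Pearson's r = 0.838, Spearman's rho = 0.863, and r = 0.741 after group means were removed). Tgfbr1 and Tgfbr2 followed (r = 0.813, rho = 0.775, 0.573 within groups). With the mean of the fibroblast markers r was 0.854 for Ltbp3, 0.842 for Tgfb3, 0.723 for Tgfbr2 and 0.721 for Tgfbr1. It was 0.438 for Tgfb2, 0.345 for Tgfb1, -0.488 for Tgfbr3 and -0.668 for Ltbp1. With the mean of the macrophage markers it was 0.811 for Tgfb3, 0.754 for Tgfb1 and 0.683 for Ltbp3. It was 0.536 for Tgfb2, 0.523 for Tgfbr2, 0.420 for Tgfbr1, -0.492 for Ltbp1 and -0.640 for Tgfbr3. Against the mean of the endothelial markers r ran from -0.687 for Ltbp1 to 0.610 for Tgfbr1. With the mean of the atrial cardiomyocyte markers it was 0.717 for Tgfbr1, 0.707 for Tgfbr2 and 0.680 for Ltbp3. It was 0.539 for Tgfb3, 0.266 for Tgfb2, 0.0070 for Tgfb1, -0.286 for Tgfbr3 and -0.361 for Ltbp1. These are descriptions over 13 arrays.

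The genes whose pattern over the 13 arrays was most like each of the 8 were found by Pearson's r over all 7837 genes. For Ltbp3 they were Col6a2 (r = 0.945), Col1a1 (0.942) and Loxl1 (0.940), 2 collagen chains and a lysyl oxidase of elastic fibres. For Tgfb3 they were Pi16 (0.949), Cxcl16 (0.934) and Serpinf1 (0.926). The receptors Tgfbr1 and Tgfbr2 had Litaf (0.920), Nuak1 (0.915) and Csk (0.895), and Il27ra (0.930), Pdpn (0.930) and Tram1 (0.924). For Tgfb1 the values were lower, with Tmbim1 (0.847), Pgghg (0.830) and the complement gene C1qa (0.824), and likewise for Tgfb2 with Tmem229b (0.867), the potassium channel Kcnk2 (0.848) and Smim14 (0.845). Tgfbr3 ran with Lypla2 (0.943), Dph2 (0.922) and Rpa1 (0.918), and Ltbp1 with Efcab2 (0.910), the nuclear receptor Esrrb (0.885) and Gde1 (0.860). No gene was among the 3 of more than 1 of the 8.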

How the data were processed

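The signals used here are the linear intensity values that the authors deposited before normalization. They were read in GenomeStudio 2011.1, per the submitters' processing notes, and values below 0 show that background had been subtracted. A detection p-value for each signal was deposited beside it. Processed intensity values of the authors, whose columns rank probes as the same arrays do and share a median of 6.5, served as an alternative. The tool for that step and a genome build for the probes are not given in the sources used here. Gene symbols came from the platform table (23978 probes with 1 symbol, 1719 with none).

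In R 4.3.3 with limma 3.58.1, signals were corrected by normexp (offset 16, with negative controls estimated through the detection p-values) and quantile normalized, and log2 values of probes with a detection p under 0.01 on at least 3 arrays were kept (11028 probes). Each of 7837 genes was represented by its brightest probe. With lmFit and eBayes, the means of the 4 groups were fitted over 13 arrays (9 residual degrees of freedom) and 5 comparisons were drawn from them, called at a Benjamini-Hochberg adjusted p under 0.05. No array pair was a duplicate. The fit was tested on simulated data. The number of arrays limits the precision, and normalization hides a shift shared by most genes.

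The genes, lists and tests were chosen with earlier results of these data known. The text names all 9 genes, up to 4 called genes of each list by size and the 3 most alike genes of each member, with Nr1h3 and Eif2s3y as label checks. Ltbp4, Furin, Bmp4, Col1a1, Acta2, Ddr2, S100a4, Bmp10 and the called cell type markers were named after their values were seen. Alternatives were the background correction, scaling, filter, probe summary, slide, groups fitted, array weights, the methods' tests and each array left out. Figures were drawn with matplotlib 3.10.9.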

Additional observations from a re-analysis of the deposited data

Results flagged for a closer look

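Probes that did not enter the tests gave signal above the Wt sham arrays on some arrays. The dim Ltbp3 probe, left aside for the brighter probe of the same gene, read 44.9 on LXRα-Tg sham 2, where the highest Wt sham value was 20.6, and was detected on 7 arrays outside Wt sham. The second Tgfbr3 probe read 31.1 on Wt TAC 1 against at most 15.5 in Wt sham, and was detected on 2 arrays, both Wt TAC. The second Tgfbr2 probe read 19.1 on Wt TAC 2 against at most 12 in Wt sham, on 1 array. A second Ltbp1 probe read 24.9 on LXRα-Tg sham 1 against at most 13.8 in Wt sham, also on 1 array. In Wt TAC, the 1 group with 4 arrays, no array lay apart from the rest for any of the 8 genes by Dixon's test.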

How the results depend on the processing

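In LXRα-Tg sham against Wt sham, 5 of the 8 genes passed with array weights (Tgfb2, Tgfb3, Tgfbr1, Tgfbr2 and Ltbp3), where 475 of all 7837 genes did, 2 with median scaling (Tgfb3 and Ltbp3, 176 of all genes), 1 with probes detected on at least 10 arrays (Tgfb3, 149 of 6691 genes), 1 with the mean of a gene's probes (Ltbp3, 141 of all genes) and 0 to 1 with 1 array left out (0 to 99 of all genes, and 48 without LXRα-Tg sham 1, where Tgfbr2 passed). All genes called numbered 0 to 475 over 22 alternatives, against 124. In the other comparisons, against 0, they numbered up to 7 (TAC in Wt), 53 (TAC in LXRα-Tg), 71 (between the TAC groups) and 55 (the difference of the TAC effects), each on 1 slide alone. With median scaling 174 genes were higher and 2 lower, against 102 and 22, and the median of all genes in the 5 comparisons was 0.15, 0.19, -0.17, -0.20 and -0.37. In the difference of the TAC effects 46 genes were lower with median scaling, against 0, and between the TAC groups 0 of the 8 estimates lay above 0 under it, against 4. None of the 8 genes passed in any other comparison under any alternative run. No paired analysis was possible because the labels give no replicate numbers.

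Estimates that changed sign had not passed any test. In Wt TAC against sham, Tgfb1 was 0.21 with array weights, 0.00061 in the authors' processed values, 0.0021 without background correction, 0.21 with median scaling, 0.21 on slide 1 and 0.30 without the 5 arrays against their label. There Tgfbr3 was 0.17 with median scaling, 0.13 on slide 2, 0.011 without the 2 arrays lacking Eif2s3y and 0.0035 without the 5 arrays, Ltbp1 was 0.15 with median scaling, 0.30 on slide 1 and 0.027 with slide as a block, and Tgfb3 was -0.034 on slide 1. With 1 array left out Tgfb1 ran from -0.26 to 0.27, Tgfbr3 from -0.16 to 0.084 and Ltbp1 from -0.16 to 0.093.

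In LXRα-Tg TAC against Wt TAC, median scaling gave -0.15 for Tgfb1, -0.15 for Tgfb3, -0.19 for Tgfbr2 and -0.0047 for Ltbp3, and slide 1 gave -0.10 for Tgfb1, 0.26 for Tgfb2, -0.14 for Tgfb3, 0.11 for Tgfbr1 and -0.17 for Ltbp3. Slide 2 gave 0.032 for Tgfbr3 and 0.027 for Ltbp1, slide as a block -0.025 for Tgfb3, leaving out the 2 arrays 0.14 for Tgfb2 and -0.11 for Tgfb3, and leaving out the 5 arrays 0.19 for Tgfb2, -0.076 for Tgfb3 and 0.068 for Ltbp1. With 1 array left out Tgfb1 ran from -0.15 to 0.19, Tgfb2 from -0.31 to 0.14, Tgfb3 from -0.12 to 0.20, Tgfbr1 from -0.083 to 0.14 and Tgfbr3 from -0.18 to 0.062.

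Elsewhere, Tgfb1 was -0.20 between the sham groups on slide 2. In LXRα-Tg TAC against sham, slide 1 gave 0.25 for Tgfb2 and 0.29 for Tgfbr2, and leaving out the 5 arrays gave 0.071 for Tgfb1. In the difference of the TAC effects, Ltbp1 was -0.073 with median scaling and -0.0092 on slide 1, and Tgfb1 was 0.33 on slide 2. The cause of these changes was not tested. Tgfb2 lies near the detection limit on the Wt sham arrays, and its sham difference was 0.59 with normexp and 0.89 without background correction.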
